A study of Homo sapiens with 12 samples.

Results

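The G2/M and mitosis genes are 44 genes that cells need to enter, run and leave mitosis, chosen by name and read from the deposited normalized table through every probe whose platform gene symbol is a member. All 44 were on the array and all 44 were tested, among 12323 genes in all. The members had 69 probes of the 47323 on the array, and 67 of those 69 passed the detection filter. The arrays profiled BE(2)-C cells, an established human neuroblastoma line with amplified MYCN, after transfection with 2 µg of plasmid. Control cells received the empty plasmid pTRex-Dest30, and the other cells received pTRex-GRHL1, which carries GRHL1, a transcription factor of the grainyhead family that is mainly studied in epithelial tissue. RNA was taken 24, 48 or 72 h later, so that the 6 groups were empty vector and GRHL1 plasmid at each of the 3 times, with 2 arrays in each group. The labels do not say what share of the cells took up plasmid, and the whole culture was measured, transfected or not.

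Mitotic entry is driven by CDK1 bound to cyclin B or cyclin A, which CDC25 phosphatases switch on and which PLK1 and the aurora kinases reinforce. The spindle checkpoint then holds CDC20 and the anaphase-promoting complex back until every kinetochore is attached, after which cyclin B and securin are destroyed and the cell divides. Most of these genes are transcribed together late in the cell cycle, under the B-MYB, MuvB and FOXM1 complexes, so their summed RNA is widely read as a measure of how many cells of a culture are cycling. In bulk RNA, fewer cells in mitosis and less RNA per mitotic cell cannot be told apart.

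The shared late timing is known to rest on a cell cycle genes homology region, here searched as TTTGAA, and on CCAAT boxes near the start of the gene. RefSeq windows of 250 bases before to 50 bases after the gene's start (build GRCh38.p14) were found for 37 of the 44 members. On either strand TTTGAA was present in 26 of 37 (70.3%), against 14.3% of the 9809 tested genes with a window and 15.2% of all 35116 windows. CCAAT was present in 30 of 37 (81.1%), against 43.7% of the tested genes and 34.6% of all windows. Both stood in a single window for 22 of 37 members (59.5%) and for 6.09% of the tested genes. The grainyhead motif, searched as AACNGGTT on both strands, matched in 0 of 37 members, 2.06% of tested genes and 1.73% of all windows. A match is a description of letters and not a bound site. Shown are the 200 bases before the start of CDC20, which activates the anaphase-promoting complex (chr1:43358781-43358980, plus strand), PLK1, a mitotic kinase (chr16:23678689-23678888, plus), TOP2A, the topoisomerase that untangles sister chromatids (chr17:40417897-40418096, minus), MKI67, which encodes the proliferation mark Ki-67 (chr10:128126424-128126623, minus), and CCNB2, a cyclin B (chr15:59104946-59105145, plus). They were chosen because each holds both motifs. The first 4 belong to genes whose values on every array are given further on. Capitals mark TTTGAA or TTCAAA and CCAAT or ATTGG, sequences run 5′ to 3′ on the gene's strand, and in MKI67 a TTTGAA and an ATTGG overlap.
CDC20: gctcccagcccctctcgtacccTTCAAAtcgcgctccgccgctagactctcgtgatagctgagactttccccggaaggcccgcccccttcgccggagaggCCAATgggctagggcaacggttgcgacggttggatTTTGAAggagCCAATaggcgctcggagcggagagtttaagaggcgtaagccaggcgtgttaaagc
PLK1: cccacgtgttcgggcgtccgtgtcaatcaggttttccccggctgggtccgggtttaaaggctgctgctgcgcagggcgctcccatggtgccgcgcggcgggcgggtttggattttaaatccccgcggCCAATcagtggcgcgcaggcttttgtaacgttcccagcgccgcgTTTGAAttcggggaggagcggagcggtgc
TOP2A: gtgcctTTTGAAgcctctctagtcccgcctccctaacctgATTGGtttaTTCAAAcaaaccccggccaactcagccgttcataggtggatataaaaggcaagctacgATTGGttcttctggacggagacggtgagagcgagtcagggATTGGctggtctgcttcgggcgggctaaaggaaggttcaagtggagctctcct
MKI67: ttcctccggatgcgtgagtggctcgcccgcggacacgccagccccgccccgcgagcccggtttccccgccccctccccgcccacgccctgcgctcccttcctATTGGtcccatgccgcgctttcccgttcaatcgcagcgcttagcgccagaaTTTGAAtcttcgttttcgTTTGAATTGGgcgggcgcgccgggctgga
CCNB2: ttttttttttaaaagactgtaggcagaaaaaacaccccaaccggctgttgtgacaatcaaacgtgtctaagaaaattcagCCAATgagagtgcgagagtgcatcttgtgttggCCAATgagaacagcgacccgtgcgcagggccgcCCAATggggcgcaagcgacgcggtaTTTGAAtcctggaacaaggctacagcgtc
In PLK1, MKI67 and CCNB2 the TTTGAA or TTCAAA nearest the start began 29 bases upstream. It began 65 bases upstream in CDC20 and 151 bases upstream in TOP2A, where it was TTCAAA.

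The transfected gene set the scene for every comparison. Its probe ILMN_1651286 read 92.28 to 122.8 normalized intensity units on the 6 empty vector arrays, under the detection limit of 128.4. On the GRHL1 arrays it read 9111 to 12964 at 24 h, 4669 to 6225 at 48 h and 5459 to 5968 at 72 h. Of the 15 neuroblastoma and adrenergic markers listed, 13 were on the array and all 13 were detected on all 12 arrays, with a summed level between 61790 and 67852 units in the 6 groups. Of the other marker lists, 0 of 4 endothelial markers, 2 of 5 leukocyte, 2 of 7 epithelial, 5 of 8 fibroblast and 1 of 4 glial markers were detected on at least 2 arrays. PTPRC, CD3E, KRT5, KRT14, CDH1, COL3A1, PDGFRA, GFAP, S100B and SOX10 were detected on 0 arrays. The fibroblast markers DCN, LUM, PDGFRB and THY1, the leukocyte markers CD14 and CD68 and the epithelial marker KRT19 were detected on all 12. The summed level of the fibroblast list was 3774 to 4306 units in the 6 groups. The glial marker that was detected, the neuregulin receptor gene ERBB3, was detected on some but not all of the 12 arrays. It rose with GRHL1 by a log2 difference of 0.84 ± 0.08 (SE, limma adjusted p = 0.000438), or by 0.47 without background correction. A second ERBB3 probe, ILMN_1737993, gave 0.45 and was not called, and under the scanner table's names described next the main probe gave 0.07 and was not called. The sample names of the deposited scanner table conflicted with those of the normalized table for 7 of 12 columns, 6 of them across plasmids. All 24 h columns carried the same name in both tables. The normalized table was used under its own names, by which GRHL1 was bright on all 6 GRHL1 arrays and dim on all 6 empty vector arrays. Columns of the 2 tables paired off closely, so the 6 scanner names across plasmids go against the GRHL1 reading of their arrays. Under the scanner table's names limma called 0 of the 12323 genes in the mean, with 479 at an unadjusted p under 0.05.

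The main probes of the members were detected on nearly all arrays. Second probes often gave a GRHL1 difference of the other sign, as given further on. The main probe of 43 genes was detected on all 12 arrays, and that of the phosphatase gene CDC25C on 11. Over all 12 arrays the ratio of the highest to the lowest reading of a member's main probe ran from 1.13 in SPC25, a kinetochore gene, to 1.55 in the checkpoint kinase gene TTK. The spread between the 2 arrays of a group had a median SD of 0.10 on the log2 scale over the 44 members, against 0.142 over all 12323 genes. It ran from 0.042 in AURKA to 0.290 in NUF2. All log2 values below are limma estimates on background-corrected intensity with an offset of 16. They are not the log2 ratios of the units printed, and for dim genes they can be larger. The mean ERBB3 difference was 0.47 without background correction, 0.59 with an offset of 50 and 0.84 with the offset of 16.

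Cyclin B1 (CCNB1), the partner of CDK1 at mitotic entry, read 929.2 and 878.3 units with empty vector and 1084 and 924.7 with GRHL1 at 24 h. At 48 h CCNB1 read 973.1 and 834.9 against 849.8 and 894, and at 72 h 1037 and 988.1 against 859.7 and 989.4. The arrays of the plasmids overlapped at all 3 times. The mean log2 difference was -0.01 ± 0.07, with a 95% interval from -0.18 to 0.15. CDC20 read 3603 and 3637 against 3597 and 3503 at 24 h, 3782 and 3168 against 3599 and 3708 at 48 h, and 3358 and 3261 against 3363 and 3550 at 72 h. The GRHL1 arrays thus lay just below the empty vector arrays at 24 h, among them at 48 h and just above at 72 h. PLK1 read 331 and 326.5 with empty vector and 347.2 and 279.7 with GRHL1 at 24 h. At 48 h it read 331.2 and 334.5 against 316.9 and 297.5, and at 72 h 278.2 and 271 against 297.7 and 277.4. Only at 48 h did the plasmids not overlap for PLK1, with GRHL1 lower. AURKA, the centrosome kinase, read 2634 on both empty vector arrays and 2831 and 2863 with GRHL1 at 24 h. At 48 h AURKA read 3024 and 2854 against 2862 and 2699, and at 72 h 2900 and 2888 against 2875 and 2728. The GRHL1 arrays were above at 24 h, overlapped at 48 h and were below at 72 h.

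TOP2A read 3832 and 3897 with empty vector and 3746 and 4287 with GRHL1 at 24 h. It read 4871 and 5469 against 4867 and 4576 at 48 h, and 4802 and 5354 against 4400 and 4999 at 72 h. Every later TOP2A array of either plasmid was above every 24 h array. MKI67 read 185.4 and 176.7 against 145.4 and 189.8 at 24 h, 197.3 and 185.1 against 177.7 and 198 at 48 h, and 183.4 and 189.8 against 175.1 and 188.2 at 72 h. The MKI67 probe lay near the limit, at 1.13 times 128.4 on its lowest array, and its plasmids overlapped at all 3 times. Survivin (BIRC5), a subunit of the chromosomal passenger complex with AURKB, read 1337 and 1202 against 1173 and 1099 at 24 h, 1259 and 1355 against 1458 and 1321 at 48 h, and 1419 and 1316 against 1333 and 1388 at 72 h. Its GRHL1 arrays were lower at 24 h and overlapped later. FOXM1, the transcription factor of the programme, read 916.6 and 831.5 against 1044 and 959 at 24 h, 864.6 and 878.5 against 814 and 786.1 at 48 h, and 925.3 and 839.6 against 907 and 880.3 at 72 h. Its GRHL1 arrays were above at 24 h, below at 48 h and overlapped at 72 h.

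**Figure D1:**
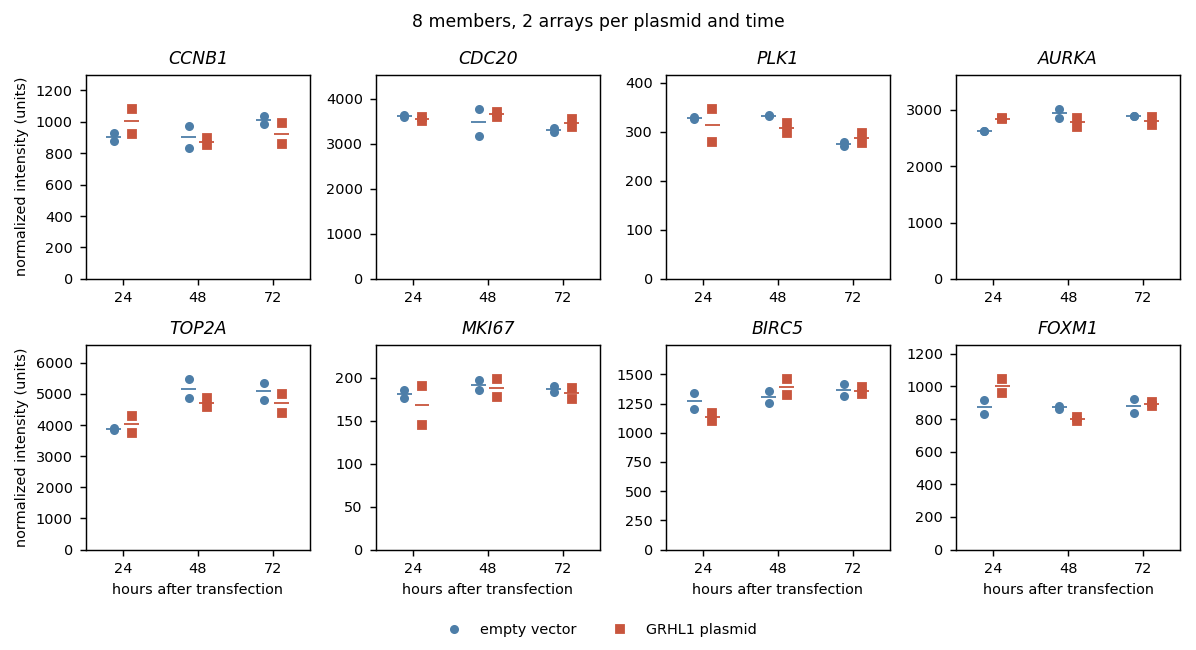
Normalized intensity (units, axes from 0) of CCNB1, CDC20, PLK1, AURKA, TOP2A, MKI67, BIRC5 and FOXM1 at 24, 48 and 72 h. Points are single arrays, circles for empty vector and squares for the GRHL1 plasmid, and short lines are the means of 2 arrays. TOP2A lies at 3746 to 4287 at 24 h and at 4400 to 5469 later, and no gene of the 8 has the plasmids apart in 1 direction at all 3 times.

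Averaged over the 3 times, no mitotic gene passed the test between GRHL1 and empty vector, and every estimate was small. In limma's fit with Benjamini-Hochberg adjustment over all genes, 0 of 44 members passed the threshold of 0.05, while 1.71% of all genes did. At an unadjusted p under 0.05 the members had 1 (CDK1), against 12.2% of all genes. The log2 difference of a member lay between -0.15 and 0.14, 13 members were above 0 and 31 below, and the median was -0.029 beside -0.008 over all genes. The 95% interval of all 44 members lay within 0.5 of 0 on the log2 scale, as it did for 91.8% of all genes, and for 40 of 44 it lay within 0.3. The labels do not say whether the arrays of a group came from separate cultures, so these p-values measure only the spread between the samples. Under the scanner table's names 0 members passed as well, and the median was 0.007 with 23 members above 0.

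**Figure D2:**
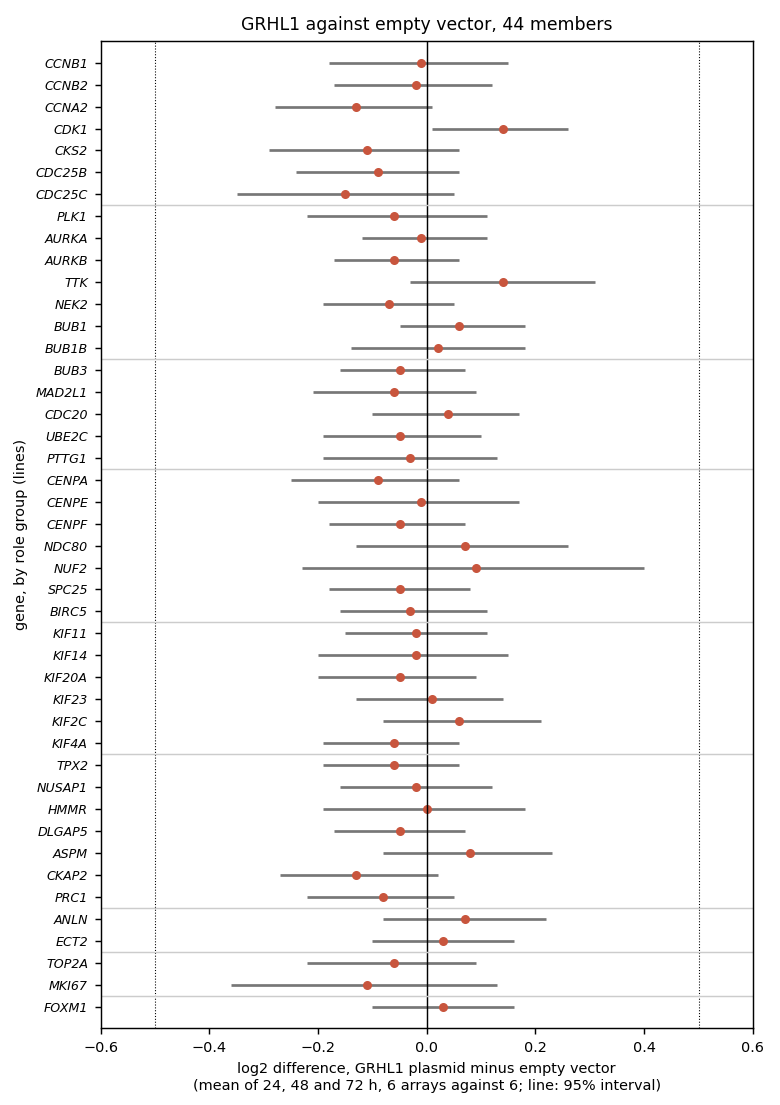
Log2 difference of each member, GRHL1 plasmid minus empty vector, averaged over 24, 48 and 72 h (6 arrays against 6). Points are limma estimates, lines are 95% intervals, dotted lines stand at 0.5 on either side of 0, and grey lines part the role groups. Estimates run from -0.15 in CDC25C to 0.14 in TTK and CDK1, and every interval stays between the dotted lines.

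Among the 7 mitotic cyclins, CDK1 and its activators, only CDK1 was above 0. CDK1 gave 0.14 ± 0.06 (limma adjusted p = 0.347), the smallest p among the members. Its main probe read 1767 and 1712 units with empty vector and 1897 and 2014 with GRHL1 at 24 h, 2062 and 1844 against 2111 and 2131 at 48 h, and 2001 and 1867 against 2044 and 2126 at 72 h. CDK1 was the only member with both GRHL1 arrays above both empty vector arrays at all 3 times, a pattern that 342 of the 12323 genes had. A second CDK1 probe, ILMN_1710428, gave -0.01. Cyclin A2 (CCNA2) gave -0.13 ± 0.07 (adjusted p = 0.451). CDC25C, which removes the inhibitory phosphates of CDK1, gave -0.15 ± 0.09 (adjusted p = 0.567), and its 2 other probes gave -0.03 and -0.02.

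Of the 7 mitotic kinases 3 were above 0, from -0.07 in the centrosome kinase NEK2 to 0.14 ± 0.08 (adjusted p = 0.498) in TTK, which starts the spindle checkpoint. AURKB, the kinase of the passenger complex, was the only member with both GRHL1 arrays below both empty vector arrays at all 3 times, as were 201 of all genes, at a difference of -0.06 ± 0.05. The 5 checkpoint and anaphase genes ran from -0.06 in MAD2L1, an inhibitor of CDC20, to 0.04 in CDC20 itself. The 7 kinetochore and centromere genes ran from -0.09 in CENPA, the centromeric histone, to 0.09 in NUF2, a microtubule-binding subunit of the kinetochore. The 6 mitotic kinesins ran from -0.06 in KIF4A to 0.06 in KIF2C, which takes microtubule ends apart. The 7 spindle assembly genes ran from -0.13 ± 0.07 (adjusted p = 0.5) in CKAP2 to 0.08 in the spindle pole gene ASPM. The cytokinesis genes ANLN, which scaffolds the contractile ring, and ECT2, which activates RhoA there, gave 0.07 and 0.03, TOP2A and MKI67 -0.06 and -0.11, and FOXM1 0.03.

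At 24 h, when GRHL1 was brightest and the names of both tables agreed, 0 of 44 members passed, beside 0.381% of all genes, and 2 had an unadjusted p under 0.05, beside 8.76%. The median was 0.007, with 24 members above 0, beside 0.019 over all genes. The smallest p were those of ASPM (0.35 ± 0.12, limma adjusted p = 0.379) and TTK (0.36 ± 0.13, adjusted p = 0.449), followed by FOXM1 at 0.21 and ANLN at 0.22. ASPM read 1094 and 1198 units with empty vector and 1392 and 1493 with GRHL1, and TTK read 618.5 and 641.2 against 793.1 and 777.9. Both GRHL1 arrays were above both empty vector arrays in these genes, and the empty vector arrays of 24 h were the lowest of all 12 in TTK. Arrays of the plasmids did not overlap in 18 members, 12 with GRHL1 above and 6 below, whereas 37.5% of all genes did not overlap. The interval lay within 0.5 of 0 for 39 members and 59.8% of all genes.

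At 48 h 0 of 44 members passed (0.446% of all genes), and 0 had an unadjusted p under 0.05 in limma's test (8.29% of all genes). The median was -0.080, with 11 members above 0, beside -0.027 over all genes. CDC25C had the smallest p at -0.30 ± 0.15 (limma adjusted p = 0.661), reading 344.8 and 315 units with empty vector and 265.8 and 298.3 with GRHL1. CCNA2 followed at -0.22, TPX2, which activates AURKA on the spindle, at -0.16 and the phosphatase gene CDC25B at -0.17. Both GRHL1 arrays were below both empty vector arrays in 18 members and above in 2, CDK1 and KIF2C. Of all 12323 genes 39.7% did not overlap, 2790 below and 2107 above. Among the 18 were PLK1, TOP2A, FOXM1, CCNA2 and CENPF. Without the first empty vector array of 48 h the median was -0.045. Under the scanner table's names the median at 48 h was 0.007, with 24 members above 0.

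At 72 h 0 of 44 members passed (0.325% of all genes), and 1 had an unadjusted p under 0.05 (7.45% of all genes). That member was DLGAP5, which stabilises spindle microtubules, at -0.22 ± 0.09 (limma adjusted p = 0.642), with 1509 and 1498 units with empty vector and 1284 and 1321 with GRHL1. A second DLGAP5 probe, ILMN_1749829, gave 0.14. BUB1B, a checkpoint kinase-like protein, gave 0.19, CCNA2 -0.16 and the spindle motor KIF11 -0.13. The median was -0.048, with 13 members above 0, beside -0.015 over all genes. It was -0.011 without the first GRHL1 array of 72 h, and 0.027 with 25 above 0 under the scanner table's names. Plasmids did not overlap in 16 members, 3 with GRHL1 above (CDK1, CDC20 and BUB1B) and 13 below, beside 36.5% of all genes. The change of the difference with time, tested with limma's F test over the 3 times, passed in 0 of 44 members and in 0.00811% of all genes. At an unadjusted p under 0.05 it had 0 members, beside 5.39% of all genes, and ASPM had the smallest value (adjusted p = 0.906), followed by FOXM1, TTK and DLGAP5.

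With time after transfection most mitotic genes read slightly higher, and no member passed the test in the main fit. For empty vector, a fit with a variance trend and robust estimation called CENPF and TOP2A at 48 h. At 72 h that fit called CENPF, CKAP2 and TOP2A. Of all genes it called 56 at 48 h and 74 at 72 h, where the main fit called 1 and 7. In empty vector cells at 48 h against 24 h, 39 of 44 members were above 0, with a median log2 difference of 0.128 beside 0.028 over all genes, of which 56.3% were above 0. In limma's test 0 members passed (0.00811% of all genes) and 8 had an unadjusted p under 0.05, all upward (10.0% of all genes). CENPF, a kinetochore protein of late cycle cells, read 1117 and 1145 units at 24 h and 1476 and 1506 at 48 h, a difference of 0.42 ± 0.10 (limma adjusted p = 0.238). TOP2A gave 0.42 ± 0.12 (adjusted p = 0.291), ASPM 0.39 ± 0.12 (adjusted p = 0.333) and NEK2 0.30 ± 0.09 (adjusted p = 0.357). In 23 members both 48 h arrays were above both 24 h arrays and in KIF2C they were below. Of all 12323 genes 40.7% did not overlap, 2931 above and 2085 below. The 5 members below 0 were KIF2C (-0.19), CDC20 (-0.07), CENPA (-0.06), CDC25C (-0.02) and CCNB1, whose difference rounds to 0.00.

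At 72 h against 24 h in empty vector cells 38 of 44 members were above 0, with a median of 0.132 beside 0.026 over all genes. Again 0 passed (0.0568% of all genes), and 10 had an unadjusted p under 0.05, 9 upward and 1 downward (10.7% of all genes). CENPF, at 1416 and 1528 units, gave 0.40 ± 0.10 (limma adjusted p = 0.229). CKAP2 went from 936.9 and 844.3 units to 1195 and 1149, a difference of 0.43 ± 0.12 (adjusted p = 0.271). DLGAP5 gave 0.32 and TOP2A 0.40. PLK1 stood on the other side, at -0.33 ± 0.13 (adjusted p = 0.408). Arrays did not overlap in 28 members above and 4 below, namely BUB1, CDC20, KIF2C and PLK1. Of all 12323 genes 40.9% did not overlap, 2947 above and 2089 below. All 7 spindle assembly genes and all 7 kinetochore and centromere genes were above 0, with medians of 0.301 and 0.129.

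With the GRHL1 plasmid the same times gave smaller medians. At 48 h against 24 h 28 of 44 members were above 0, with a median of 0.040 beside -0.017 over all genes. In limma's test 0 passed (0.0974% of all genes) and 3 had an unadjusted p under 0.05 (9.85% of all genes). FOXM1 gave -0.35 ± 0.10 (limma adjusted p = 0.299), BIRC5 0.31 ± 0.11 (adjusted p = 0.397), CENPF 0.24 and TOP2A 0.24. A second BIRC5 probe, ILMN_1803124, gave 0.03, and a second FOXM1 probe, ILMN_1716400, gave -0.18. Arrays did not overlap in 14 members above and 2 below, CCNB1 and FOXM1. Of all 12323 genes 41.8% did not overlap, 2254 above and 2899 below. At 72 h against 24 h 28 members were above 0, with a median of 0.075 beside -0.006, and 0 passed (0.211% of all genes). Without the second GRHL1 array of 72 h that median was 0.036. There 5 had an unadjusted p under 0.05 (10.9% of all genes), and CKAP2 gave 0.40 ± 0.12 (limma adjusted p = 0.259), BIRC5 0.28, CENPF 0.25 and BUB1 -0.22. Second probes gave -0.02 for BIRC5 and 0.15 for CKAP2. Arrays did not overlap in 15 members above and 4 below, ASPM, BUB1, FOXM1 and TTK. Of all 12323 genes 41.2% did not overlap, 2387 above and 2688 below.

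The gap between the plasmids in these medians changed under the scanner table's names, which put 6 columns under a plasmid that their GRHL1 reading goes against. Under the scanner table's names the medians at 48 h were 0.093 with empty vector and 0.065 with GRHL1, and at 72 h they were 0.072 and 0.084. The direction of change from 24 h was upward in all 4 under either set of names. The 24 h columns keep their names and those arrays had the lowest means of the members, so renaming later arrays could hardly turn it. The order of the plasmids at 72 h was not kept. The change of the GRHL1 difference with time was tested gene by gene, and 0 members passed. That test does not address the gap between the medians, which was not tested.

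**Figure D3:**
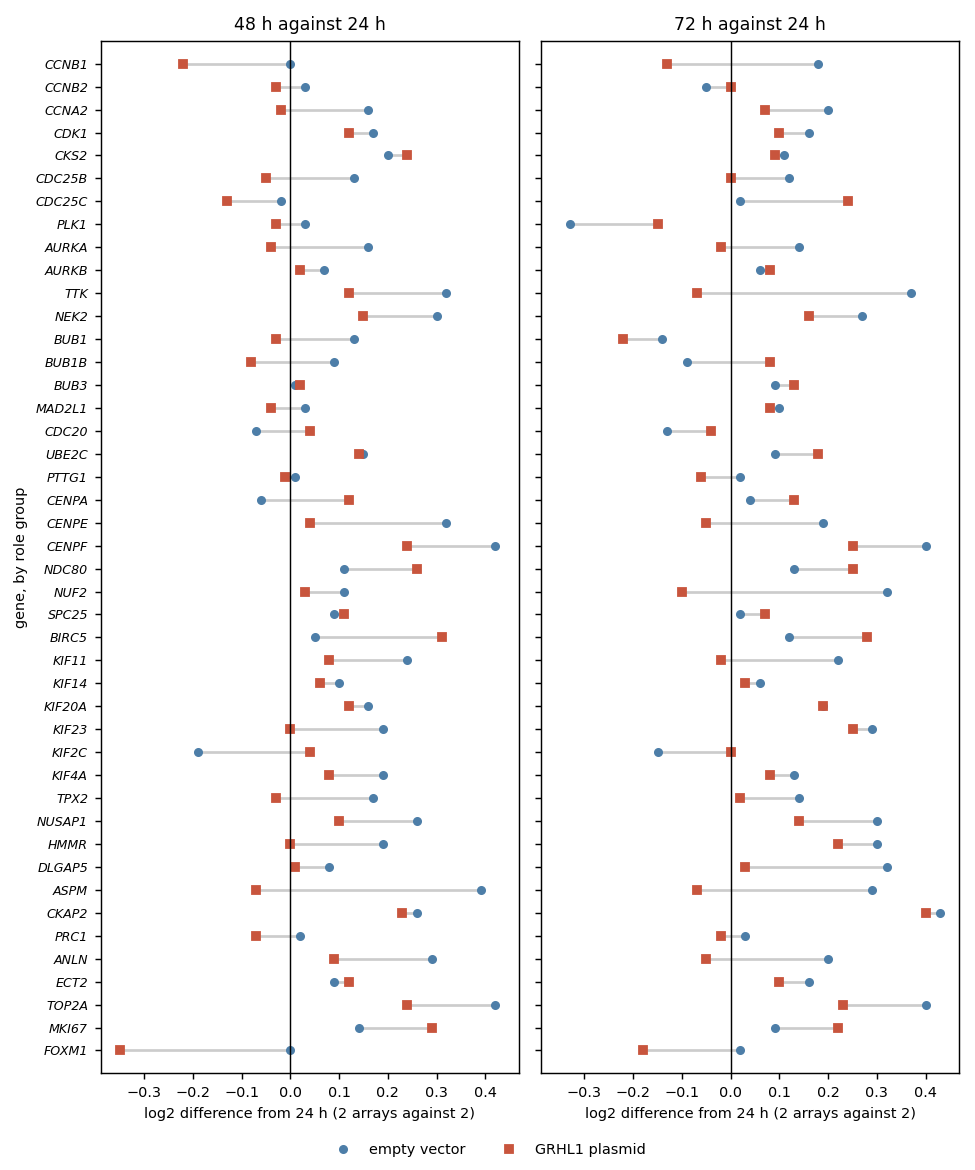
Log2 difference of each member from the 24 h arrays of the same plasmid, at 48 h (left) and 72 h (right), 2 arrays against 2. Circles are empty vector and squares the GRHL1 plasmid, and a grey line joins the values of a gene. At 48 h 39 circles and 28 squares lie above 0, with CENPF and TOP2A at 0.42 and FOXM1 at -0.35 at the ends.

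Between 48 and 72 h the signs were mixed and no member passed. With the plasmids pooled (4 arrays against 4) 21 members were above 0, with a median of -0.001 beside 0.006 over all genes. In limma's test 0 passed (0.0243% of all genes) and 3 had an unadjusted p under 0.05 (8.29% of all genes). BUB1, a kinase of the spindle checkpoint, gave -0.23 ± 0.06 (limma adjusted p = 0.384), with readings of 494.5, 516.8, 497 and 508.6 units at 48 h and 445.5, 419, 446.4 and 450.6 at 72 h. All 4 later arrays were below all 4 earlier ones. PLK1 gave -0.24 ± 0.09 (adjusted p = 0.543), the midzone kinesin KIF23 0.17 and CKAP2 0.17.

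Seen by array, the mean deviation of the 44 members from their own 12-array means was -0.073 and -0.084 on the empty vector arrays of 24 h and -0.037 and -0.063 on the GRHL1 arrays of 24 h. At 48 h it was 0.064 and 0.051 with empty vector and 0.002 and -0.001 with GRHL1. At 72 h it was 0.049 and 0.059 with empty vector and -0.018 and 0.052 with GRHL1. The 4 arrays of 24 h were the lowest, and at 72 h the GRHL1 arrays lay apart from each other by more than the empty vector arrays did. Over all genes the same measure ran from -0.047 to 0.027 over the 12 arrays, with the lowest value on the first empty vector array of 24 h.

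**Figure D4:**
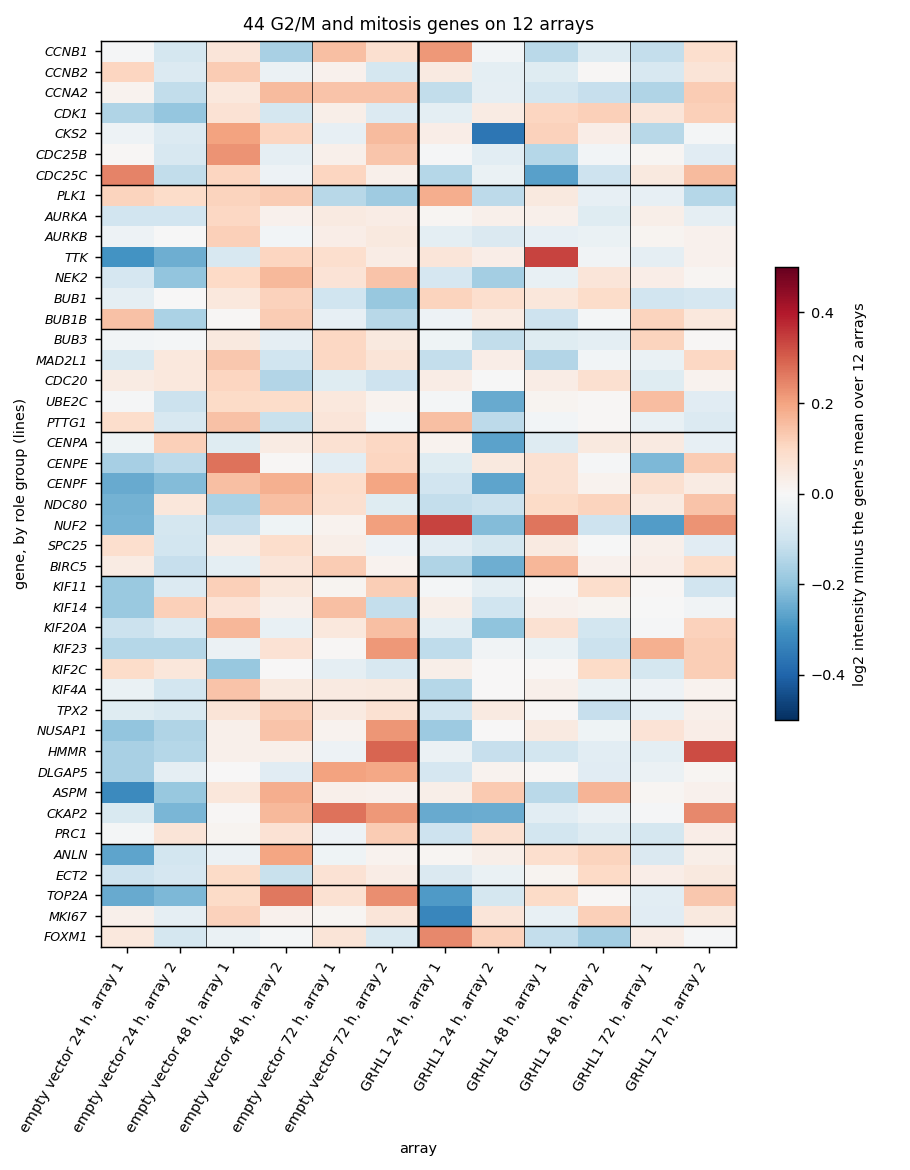
Heat map of the 44 members (rows, by role group) on the 12 arrays (columns, empty vector left, GRHL1 right, in order of time). Colour is log2 normalized intensity minus the gene's mean over the 12 arrays, red above and blue below. The empty vector arrays of 24 h are mostly blue (mean deviations -0.073 and -0.084 on the background-corrected scale), and those of 48 h mostly red (0.064 and 0.051).

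Second probes showed how far single estimates can be read. For the mean over the 3 times 16 of 23 second probes had the sign of their gene's main probe, and the largest gap was 0.24. At 24 h only 10 of 23 did. There NUF2 gave 0.26 by its main probe and -0.34 by ILMN_1802951, a gap of 0.60. At 72 h against 24 h with GRHL1, CDC25C gave 0.24 by its main probe and -0.30 by ILMN_1725260. In empty vector cells the second probes kept the sign of the main probe in 17 of 23 at 48 h and in 18 of 23 at 72 h. For CDK1, CKAP2 (0.08 by ILMN_2181060), DLGAP5, BIRC5, KIF23, MAD2L1 and NUF2 the sign of the mean GRHL1 difference depended on the probe.

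Lists of other cell cycle genes gave 0 calls between the plasmids, apart from 1 inhibitor of mitotic entry. Over all genes 1.71% were called in the mean, so 0 calls in lists this short say little about them. An unadjusted p under 0.05 in the mean was found for 12.2% of all genes, and their median was -0.008. Of 59 further G2/M and mitosis genes tested (62 listed), 0 passed in any of the comparisons, with 5 at an unadjusted p under 0.05 for the mean and a median of -0.014. The 2 with the smallest p were LMNB1, a nuclear lamin, at -0.27 ± 0.08 (limma adjusted p = 0.156) and KNL1, the kinetochore scaffold, at -0.25 ± 0.08 (adjusted p = 0.175). In empty vector cells the median of the 59 genes was 0.082 at 48 h, beside 0.028 over all genes, with 46 of 59 above 0. At 72 h it was 0.070, beside 0.026, with 49 of 59 above 0. With GRHL1 it was -0.011 at 48 h and 0.028 at 72 h, beside -0.017 and -0.006 over all genes. Of 15 genes of the anaphase-promoting complex and its partners (16 listed) 0 passed and 1 had an unadjusted p under 0.05, with a median of -0.022 and ANAPC7 at -0.28 ± 0.10 (adjusted p = 0.276) and ANAPC1 at -0.11. Of 23 genes of the DREAM, B-MYB and E2F regulators (25 listed) 0 passed and 1 had an unadjusted p under 0.05, with a median of -0.018, the retinoblastoma gene RB1 at -0.19 ± 0.06 (adjusted p = 0.221) and E2F7 at 0.17. Of 32 G1/S and DNA replication genes (35 listed) 0 passed and 2 had an unadjusted p under 0.05, with a median of -0.011, GINS1 at -0.26 ± 0.10 (adjusted p = 0.325) and CCND3 at 0.11.

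In these cell cycle lists the 1 gene called was GADD45G, where 1.71% of all genes were called in the mean. The 13 inhibitors tested had a median of -0.050 in the mean, with 4 above 0 and 9 below. In limma's test 2 of them had an unadjusted p under 0.05 (12.2% of all genes), 1 upward and 1 downward. Among 13 inhibitors of mitotic entry tested (17 listed), GADD45G, a stress-induced protein known to bind CDK1 and cyclin B1, read 247.2 and 252.1 units with empty vector and 443.4 and 351.9 with GRHL1 at 24 h. At 48 h it read 206 and 222.5 against 338.4 and 365.5, and at 72 h 249.6 and 267.8 against 414.2 and 349. Every GRHL1 array was above every empty vector array. The mean log2 difference was 0.83 ± 0.09 (95% interval 0.64 to 1.03, limma adjusted p = 0.000752). By time it was 0.85 ± 0.15 at 24 h (adjusted p = 0.0556), 0.95 ± 0.15 at 48 h (adjusted p = 0.0263) and 0.70 ± 0.15 at 72 h (adjusted p = 0.141), and the change with time did not pass (adjusted p = 0.999). Under the scanner table's names, in which 6 columns change plasmid, the mean difference was 0.03 and was not called. Its relative GADD45A gave -0.25 ± 0.10 (adjusted p = 0.314) by its main probe and 0.14 by ILMN_1694075, and the CDK inhibitor CDKN1A gave 0.00. In GRHL1 cells GADD45A went from 298.7 and 311.1 units at 24 h to 216.7 and 225.2 at 48 h, at -0.64 ± 0.17 (adjusted p = 0.264). In empty vector cells the same times gave -0.47 ± 0.17 (adjusted p = 0.408). The kinase gene WEE1, which holds CDK1 inactive, gave -0.07.

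**Figure D5:**
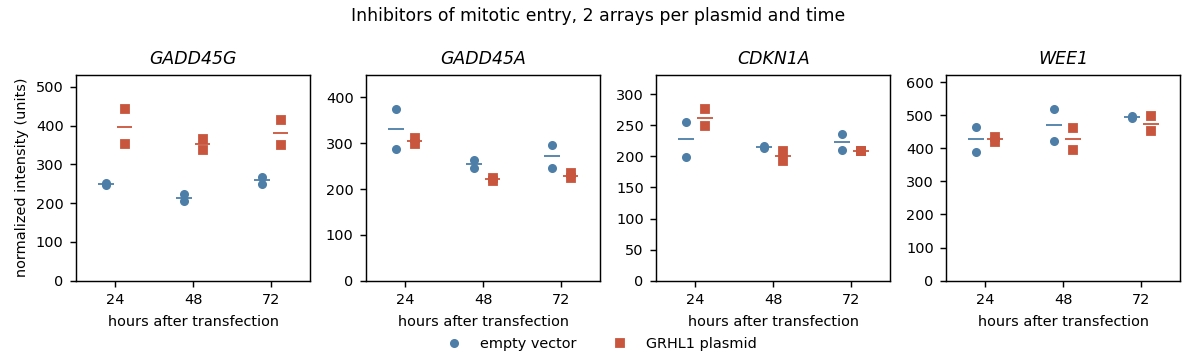
Normalized intensity (units, axes from 0) of GADD45G, GADD45A, CDKN1A and WEE1 at 24, 48 and 72 h. Points are single arrays, circles for empty vector and squares for the GRHL1 plasmid, and short lines are the means of 2 arrays. GADD45G lies at 206 to 267.8 with empty vector and at 338.4 to 443.4 with GRHL1.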

How the data were processed

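Total RNA of BE(2)-C cells was biotin-labelled and hybridised to 12-sample Illumina BeadChips, per the labels. The authors deposited 2 tables of linear intensity, from the scanner and normalized, and a detection p-value for each deposited scanner intensity, per the file headers. How the authors normalized the table is not stated in the labels or headers. Columns were matched to samples by their own names. Scanner and normalized columns paired off at rank correlations of at least 0.999973 (next best 0.8757), and the names of 7 of 12 such pairs conflicted.

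Each array detected 17950 to 19427 of 47323 probes. A probe was detected at p under 0.01 with a signal above the array's background. The normalized intensity was corrected with limma's normexp (offset 16) and log2-transformed with no quantile step. The median of its probe filled 1 missing value. Gene symbols came from the platform annotation. The filter left 16501 probes that named 1 gene and were detected on at least 2 arrays. Each gene was represented by its brightest probe. Second probes were read from a fit over all 22986 detected probes. limma 3.58.1 in R 4.3.3 fitted a mean for each of the 6 groups (6 residual and 3.72 prior degrees of freedom). Calls are Benjamini-Hochberg adjusted p under 0.05 over 12323 genes, and SE is limma's moderated standard error. The fit was tested on simulated data with planted changes larger than the mean difference of any member, so that test does not cover differences as small as theirs. Python 3.11.15, pandas 2.3.3, numpy 2.4.6 and matplotlib 3.10.9 served for tables and plots.

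The members, the gene lists and the rule for named genes were chosen with earlier results of these data known. Values on every array were given for 8 members and for CDK1. Some other members with a small p were given only on the arrays of a comparison. In each comparison the 4 smallest p, or the called genes, were named. AURKB and genes named only for arrays that did not overlap, or for their sign, were chosen after their values were seen. The number of arrays limits the precision. Replicates of a group correlated at 0.9917 to 0.9925 over genes. Same-numbered arrays of a time deviated together at correlations of 0.114, 0.0175 and 0.03, so the numbers were not taken as pairs. Some genes of the lists are not reported here. Alternatives covered background correction, offset, scaling, detection filter, probe choice, variance model, source table, arrays in the fit, replicate block and leaving out each array.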

Additional observations from a re-analysis of the deposited data

How the results depend on the processing

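Of 223 alternative counts of members called, 221 gave 0, those that left out 1 array (0 to 0 in each comparison), the replicate block of pairs within a time (0) and the replicate block by number over all arrays (0) included. The exceptions came from limma with a variance trend and robust estimation. In empty vector cells it called 2 members at 48 h against 24 h, CENPF and TOP2A, and 3 at 72 h, CENPF, CKAP2 and TOP2A. These members were all higher, and the cause was not tested. Of all 12323 genes it called 56 at 48 h and 74 at 72 h, where the main fit called 1 and 7. Since no member was called in the analysis reported, these counts say nothing about the stability of a direction. Under the scanner table's names, 6 of which go against the GRHL1 reading, the sign of the log2 difference turned in 20 of 44 members for the mean. It turned in 1 at 24 h, in 19 at 48 h and in 34 at 72 h. With 1 array left out the median of the members ran from -0.047 to -0.015 for GRHL1 against empty vector over the 3 times, from 0.007 to 0.041 at 24 h, from -0.090 to -0.045 at 48 h and from -0.057 to -0.011 at 72 h. It ran from 0.118 to 0.174 for empty vector at 48 h against 24 h and from 0.132 to 0.148 at 72 h, and with the GRHL1 plasmid from 0.030 to 0.057 and from 0.036 to 0.089. The median over the 3 times was -0.015 without the second GRHL1 array of 24 h and -0.047 without the second empty vector array of 48 h. The highest median at 24 h was that without the first empty vector array of 24 h. Under the scanner table's names the medians were 0.007 for the mean, 0.093 for empty vector at 48 h and 0.072 at 72 h. GADD45G kept its call in the mean in 21 of 22 alternatives (0.03 to 0.9), turned to -0.31 at 48 h under the scanner table's names, and at 24 and 72 h it was called without background correction and with the variance trend. Its call at 48 h held in 11 of 23 alternatives. It was lost with every detected probe (adjusted p = 0.0535), with no detection filter, with only the arrays compared, with either replicate block and under the scanner table's names. It was also lost in 6 of 12 fits that left out 1 array, namely any array of 48 h or an empty vector array of 24 h (adjusted p up to 0.239). Groups of 2 arrays limit single times: at 24 h the interval reached -0.63 in MKI67 and 0.80 in NUF2, so changes of that size in them were not excluded.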
